A study of Saccharomyces cerevisiae with 10 samples.

Results

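The left arm of chromosome VII of the budding yeast Saccharomyces cerevisiae was examined gene by gene in 10 poly(A) RNA-seq libraries. Of the 6059 genes in the deposited count tables, 245 carry an identifier that begins with YGL, the code for this arm. Ribosomal protein, autophagy and cytochrome oxidase genes were left out where the symbol begins with RPL, RPS, MRP, RSM, ATG or COX. SCL1, RPT6 and OLE1 were left out too, 15 genes in all, which leaves 230 genes, ordered by their position on the R64 sequence. MNP1, a mitochondrial ribosomal protein gene with another symbol, stayed in. The study compared strain Z100, labelled the adaptive strain and named in the series title as the product of evolution under modest heat, with XH7, labelled the control strain. Each strain was sampled at 30 °C and after 1 h at 50 °C, with 2 libraries per temperature for XH7 and 3 for Z100. The labels do not say whether Z100 was derived from XH7 or whether either strain is a single clone. Nor do they say that replicate libraries are separate cultures; p-values therefore cover only the spread between the libraries, which may be technical. The extraction protocol describes the unheated cultures as held in an ice-water mixture, whereas the condition labels give 30 °C. The arm was chosen by its strain differences, the log2 ratios of Z100 to XH7 at both temperatures, as seen earlier in these data. Those differences are therefore given below as a description and only the response to heat is tested.

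Yeast chromosomes carry genes of unrelated function side by side, on both strands, and neighbours are usually controlled separately. The left arm of chromosome VII holds glucose signalling genes such as HXK2, MIG1, SNF4 and SIP2, the plasma membrane proton pump gene PMA1, the heat shock factor gene HSF1, and genes for nuclear pores, ribosome assembly, secretion and the synthesis of amino acids. Its outer end is a telomere, next to which lie members of subtelomeric families such as COS and PAU, and its inner end is the centromere.

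Library totals ran from 51901045 to 81442848 counts. The induced chaperone genes HSP26, HSP104 and SSA4 were far higher in every 50 °C library than in every 30 °C library, as their labels state. Levels below are CPM (counts scaled to the library total), divided by scaling factors (TMM, the trimmed mean of M-values), which ran from 0.678 to 1.37. A strain difference is log2 of Z100 over XH7 from a model fitted to all 6015 genes that passed the filter on low counts. Of the 230 genes, 229 passed, and YGL193C, with 2 to 3 counts in each library, did not. Regional medians are given minus the median over all 6015 genes, which was -0.08 at 30 °C and -0.01 at 50 °C. In these cultures a change in the share of cells and a change in RNA per cell cannot be told apart.

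The median strain difference of the 229 genes was 0.34 at 30 °C and 0.34 at 50 °C on the log2 scale. Among the 32 chromosome arms, with the left-out genes included, the left arm of VII stood at rank 1 at both temperatures. The right arm of the same chromosome had medians of -0.04 and 0.09. The arms next in rank had a high median at only 1 of the temperatures. The right arm of IX had 0.30 and -0.08, the left arm of VI 0.23 and -0.06, and the left arm of VIII -0.01 and 0.29. Chromosome III lay at the opposite end, with -0.47 and -0.60 over its 162 tested genes.

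**Figure D1:**
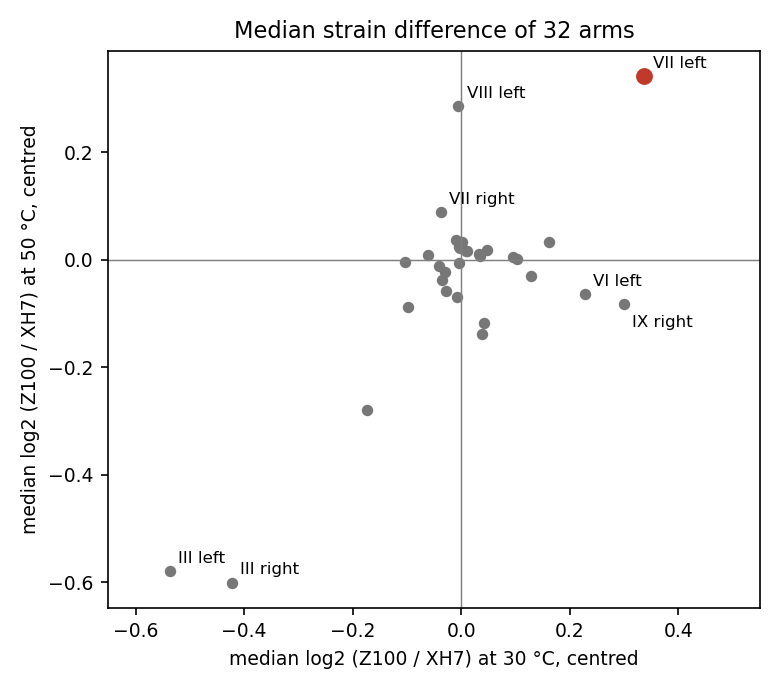
Median strain difference (log2 Z100 over XH7, minus the median of all genes) of each of 32 chromosome arms at 30 °C (x axis) and at 50 °C (y axis); the red point is the left arm of VII and grey points are the other arms. The left arm of VII lies at 0.34 on both axes, the right arm of VII near 0, and both arms of III at the lower left.

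At 30 °C the edgeR quasi-likelihood test with Benjamini-Hochberg adjustment called 64 of the 229 genes higher in Z100 and 14 lower, against 14.3% and 14.1% of all genes. At 50 °C it called 32 higher and 3 lower, against 4.02% and 4.94%. Every Z100 library lay above every XH7 library for 114 genes at 30 °C and for 98 at 50 °C, against 31.8% and 18% of all genes. Every Z100 library lay below every XH7 library for 56 and 29 genes, against 40.5% and 18.4%. Nothing is read from these counts, since this contrast led to the choice of the arm. Leaving out 1 library moved these counts. The shares of all genes above are those of the main fit and do not apply to the counts that follow. In place of 64 higher and 14 lower at 30 °C, the test called 28 and 0 lacking unheated XH7 replicate 1 and 11 and 0 lacking replicate 2, where 17 and 14 genes were lower at an unadjusted p under 0.05. Lacking unheated Z100 replicate 1, 2 or 3 it called 42, 44 or 37 higher and 8, 6 or 3 lower. At 50 °C, in place of 32, the test made 10 calls lacking either unheated XH7 library, 18 lacking heated XH7 replicate 1, 19 or 14 lacking unheated Z100 replicate 1 or 3, and 10 lacking heated Z100 replicate 3. Scaling by library size alone gave 8 higher and 6 lower at 50 °C. Fitting the 50 °C libraries without the others gave 0 calls by edgeR in either direction, where 58 and 13 genes were higher and lower at an unadjusted p under 0.05, while DESeq2 over all libraries called 66 and 9.

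The higher genes were not spread evenly along the arm. The highest run of neighbours was a middle stretch of 147 tested genes, from MTC3 to ERV14, at chrVII:73340-401287, which is 328 kb long. Its median strain difference was 0.49 at 30 °C and 0.49 at 50 °C, or 1.41-fold at each temperature. Within it, 118 of the 147 genes lay above the all-gene median at 30 °C, 129 at 50 °C and 106 at both. Every Z100 library was above every XH7 library for 92 of the 147 at 30 °C and 81 at 50 °C, against 31.8% and 18% of all genes. Every Z100 library was below every XH7 library for 18 of them at 30 °C and 6 at 50 °C, against 40.5% and 18.4%. The stretch holds 147 of the 229 tested genes. Of the genes called higher, 51 of 64 at 30 °C and 31 of 32 at 50 °C lay in it. None of its genes was called lower at 30 °C and only ARI1 was called lower at 50 °C. The stretch was found from the strain differences themselves, as the run of neighbours with the largest summed excess over 0.25, so it carries no test.

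The genes on either side of the stretch had other values. On the telomere side, 37 tested genes from COS12 to OST5, at chrVII:2790-73158, had medians of -0.34 and -0.25, or 0.790-fold and 0.840-fold. Only 10 of the 37 lay above the all-gene median at 30 °C and 10 at 50 °C. On the centromere side, 45 tested genes from TYW3 to ERG26, at chrVII:405776-496502, had medians of 0.15 and 0.03, with 24 of 45 above the all-gene median at each temperature. Past the centromere, the nearest 30 genes of the right arm had -0.10 and -0.02.

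**Figure D2:**
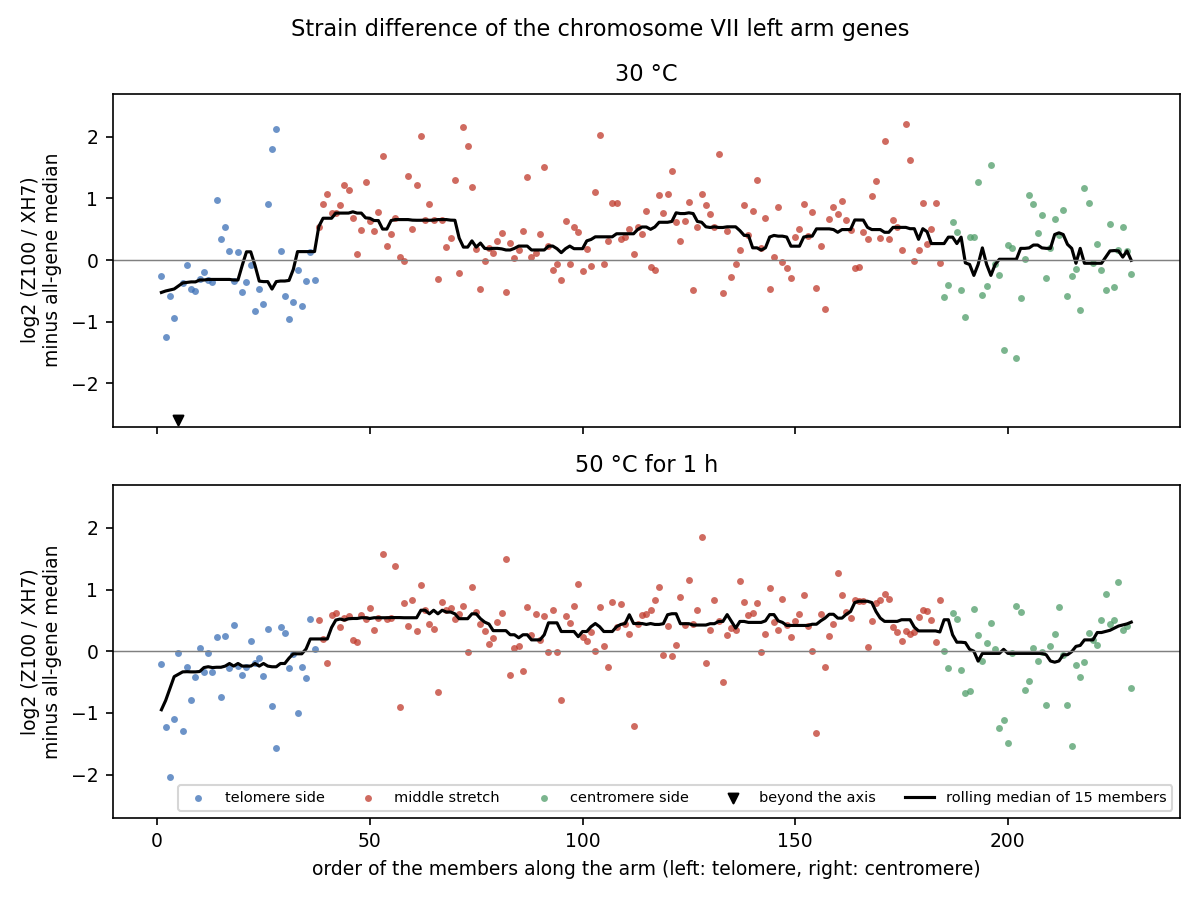
Strain difference (log2 Z100 over XH7, minus the median of all genes) of each of the 229 tested genes, in their order along the arm from telomere (left) to centromere (right), at 30 °C (upper panel) and 50 °C (lower panel). Points are genes, coloured by region, the black line is the rolling median of 15 genes, and the triangle is YPS5, which lies beyond the axis; the line runs below 0 on the telomere side, above 0 through the middle stretch and near 0 on the centromere side.

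At the telomere-side end the 30 °C values changed between neighbours, and the 50 °C values were mixed. OST5, which encodes a subunit of the oligosaccharyltransferase, had strain differences of -0.41 and 0.03. MTC3, the next gene, had 0.46 and 0.50. It is followed by VRG4, for the Golgi GDP-mannose transporter, with 0.84 and 0.19, by SDT1, for a pyrimidine nucleotidase, with 0.99 and -0.19, and by COG1, for a Golgi tethering subunit, with 0.68 and 0.58. The SEs were 0.15 for OST5 and 0.21 for MTC3 and COG1, and the step between neighbours was not tested. VID30, just outside the end, had 0.06 at 30 °C but 0.52 at 50 °C.

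The centromere-side end was less sharp. SDS23, a gene of cell separation, had 0.85 at 30 °C and 0.14 at 50 °C. ERV14, for a cargo receptor of vesicles leaving the endoplasmic reticulum, had the reverse, -0.13 and 0.82. TYW3, for an enzyme of tRNA modification and the next tested gene, had -0.68 and -0.00. With the excess set anywhere from 0.15 to 0.3 the ends stayed at MTC3 and ERV14, and at 0.1 the far end moved to RIM8 at position 415730. From the 30 °C values alone the run ended at SDS23, and from the 50 °C values alone it ran from COG1 to ERV14 at 0.25 and from VID30 to RIM8 at 0.1 to 0.2.

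The stretch was also described in each Z100 library. Its 147 genes were picked from differences fitted with these same libraries, so the medians below do not test it. Relative to the XH7 mean of the same temperature, the median of the 147 genes was 0.46, 0.52 and 0.47 in the 30 °C libraries of Z100 and 0.50, 0.48 and 0.52 in its 50 °C libraries. The XH7 libraries deviated from their own mean by 0.01 at 30 °C and 0.02 at 50 °C. Each XH7 library is part of that mean, so these deviations are no measure of spread for the Z100 values. The telomere side was below 0 in all 6 Z100 libraries, at -0.38 to -0.16, while the centromere side lay between -0.06 and 0.21. The run found in each library spanned MTC3 to SDS23 in all 3 libraries at 30 °C, COG1 to ERV14 in 2 of the 3 at 50 °C, and VID30 to ERV14 in the remaining library. These 6 runs hold 144 to 149 genes. Libraries of a temperature share the XH7 mean they are set against.

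**Figure D3:**
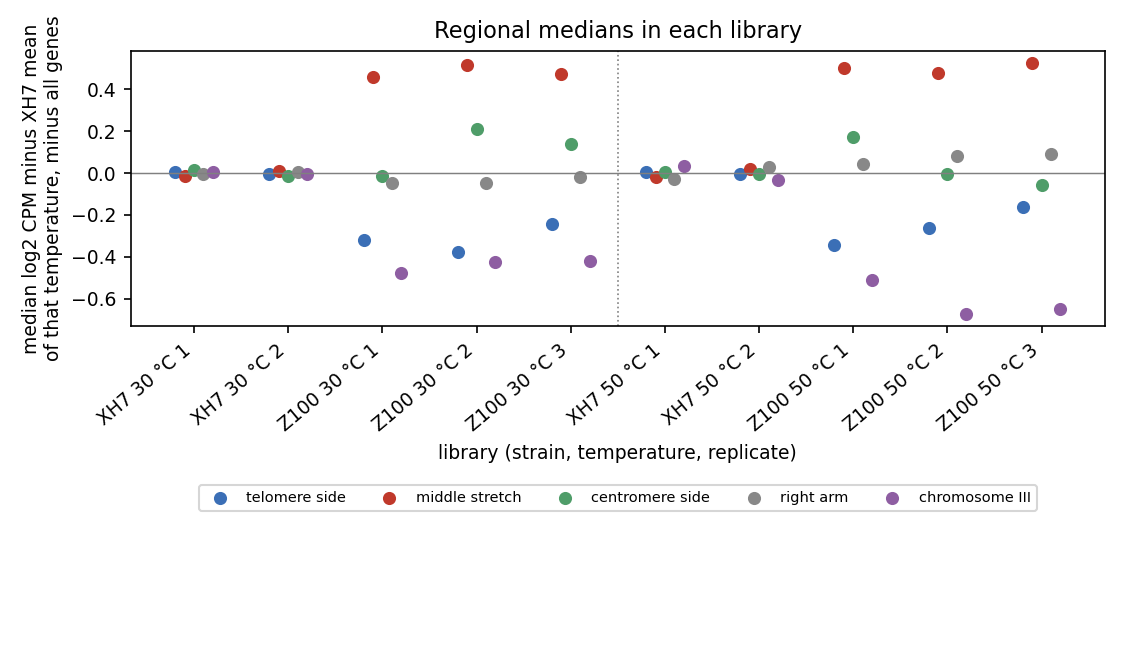
Median over genes of log2 CPM minus the XH7 mean of the same temperature, minus the same median over all genes (y axis), in each of the 10 libraries (x axis), for the 3 regions of the left arm, the right arm of VII and chromosome III. The middle stretch lies between 0.46 and 0.52 in all 6 Z100 libraries, chromosome III between -0.67 and -0.42, and the telomere side between -0.38 and -0.16.

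The genes that the symbol rule leaves out had medians near those of the members inside the stretch, but not on the centromere side at 30 °C. The 11 of them inside the stretch, which include 6 cytosolic ribosomal protein genes, COX4 and COX13, had medians of 0.55 and 0.52. Of these 11, 10 lay above the all-gene median at each temperature. RPL9A had -0.25 ± 0.48 (SE) at 30 °C and RPL28 had -0.07 ± 0.41 at 50 °C. The 4 on the centromere side had -0.25 and 0.16, against 0.15 and 0.03 for the members there. RNAs that are not translated lay in the stretch too. RME2, a transcript antisense to the meiotic gene IME4, had strain differences of 0.86 ± 0.16 (SE) at 30 °C and 0.88 ± 0.16 at 50 °C. The small nucleolar RNA snR10 had 0.57 ± 0.40 and 1.06 ± 0.40, and snR82 had 0.34 ± 0.41 and 1.03 ± 0.42. The library kit does not mark strand, so reads of RME2 and of a gene on the opposite strand cannot be told apart.

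No other chromosome held a higher run of comparable length. With all YGL rows included, the run on VII held 158 genes, and the next longest, on chromosome XII, held 26. In the other direction the run on chromosome III took in all 162 of its tested genes, with a median of -0.52 for the mean of both temperatures.

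Within the stretch the difference varied with level and position, and less between strands. In the third of its genes with the lowest level, the medians were 0.28 at 30 °C and 0.40 at 50 °C, and in the third with the highest level they were 0.66 and 0.53. Genes on the plus strand had 0.54 and 0.48 and those on the minus strand 0.44 and 0.52. Going inward in blocks of 15 genes, the 30 °C median was 0.50 from KIP3 to MCM6 and 0.66 from EMP24 to TOS3, then 0.16 from MPT5 to SUT1 and 0.18 from YIP5 to TIP20. It was 0.50 and 0.61 in the next pair of blocks, which run from ROG1 to NSA1. At 50 °C the same dip was shallower, at 0.27 and 0.32, between blocks of 0.64 and 0.45. A further low block at 30 °C, from CUE3 to SPC105, had 0.20 at 30 °C and 0.49 at 50 °C.

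Among genes that reached 10 CPM, the 10 with the largest mean strain difference all lay in the stretch. The stretch was found from these same differences and holds 147 of the 229 tested genes, so nothing is read from this placing. SIP2, for an alternative beta subunit of the glucose-starvation kinase Snf1, stood at 9.32 and 9.09 CPM in XH7 at 30 °C and at 25.5, 32.7 and 26.3 CPM in Z100. At 50 °C the levels were 19.7 and 13.8 CPM in XH7 and 69.4, 38.1 and 41.9 CPM in Z100. The groups did not overlap at either temperature, and the fitted differences were 1.61 ± 0.29 and 1.57 ± 0.29 (SE). GTS1, a regulator of transcription and of endocytic patches, had 34.8 and 31.7 CPM in XH7 against 69.6, 71.1 and 73.1 CPM in Z100 at 30 °C. At 50 °C it had 73.6 and 93.1 CPM against 168, 171 and 173 CPM. GTS1 was therefore about equally raised at both temperatures, by 1.10 and 1.03, with tight Z100 replicates.

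CEG1, the guanylyltransferase of mRNA capping, behaved likewise. Its level was 42.4 and 37.3 CPM in XH7 and 85.5, 65.1 and 84.3 CPM in Z100 at 30 °C, and 52.9 and 44.4 CPM and 112, 87.1 and 99.8 CPM at 50 °C. The fitted differences were 0.97 ± 0.19 and 1.03 ± 0.19, and every Z100 library was above every XH7 library. In the remaining genes of this group the difference at 30 °C was larger than at 50 °C, apart from GPG1. YIP4, for a Golgi protein that binds Rab GTPases, had 1.93 and 1.06, the latter 1.68 without XH7 50 °C replicate 1. MNP1, for a mitochondrial ribosomal protein, had 1.85 and 0.93, and PUS2, for a mitochondrial tRNA pseudouridine synthase, had 2.13 and 0.32, the latter 0.92 without the same library. RRT6, for a p24 family membrane protein, had 1.94 and 0.71, and YGL114W, which has no gene name in the tables, had 1.65 and 0.48. Whether these differences themselves changed with temperature is given further down for MNP1 and YGL114W, and was not called for the others.

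STR3 and GPG1 complete that group and vary more between libraries. STR3, for cystathionine beta-lyase of methionine synthesis, had 2.67 and 3.02 CPM in XH7 and 18.5, 3.01 and 14.5 CPM in Z100 at 30 °C. Replicate 2 of Z100 thus lay within the XH7 range, and the fitted difference of 2.08 ± 0.60 was 1.35 from log2(FPKM + 1). GPG1, a proposed gamma subunit of a heterotrimeric G protein, had 0.86 ± 0.51 and 1.16 ± 0.50, and the latter was 2.17 without XH7 50 °C replicate 1.

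**Figure D4:**
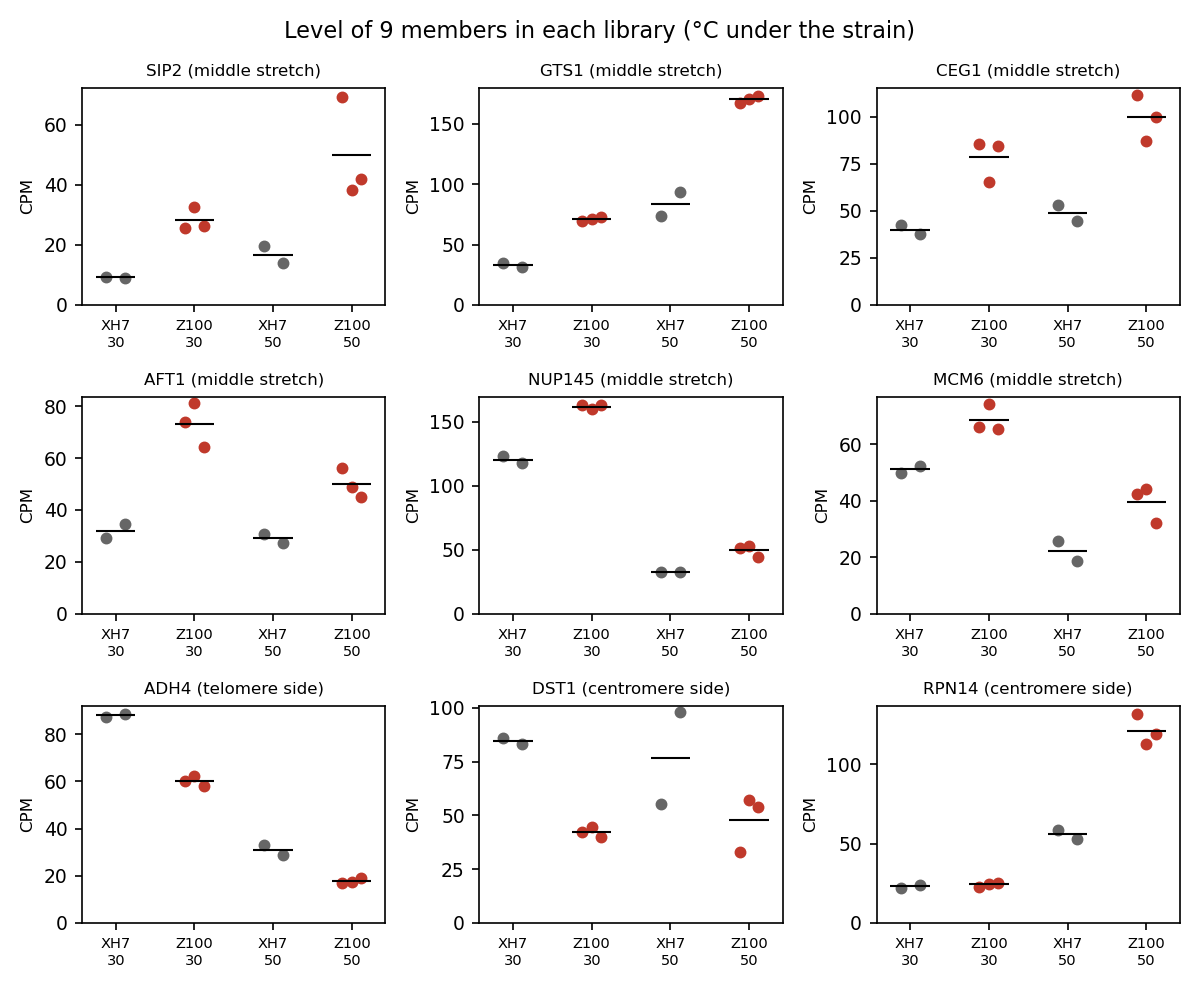
Level in CPM (y axis, from 0) of 9 left-arm genes in each library, by strain and temperature (x axis); points are libraries, horizontal bars are group means, grey is XH7 and red is Z100. Z100 lies above XH7 at both temperatures for the 6 genes of the middle stretch, below it for ADH4 and at 30 °C for DST1, and above it only at 50 °C for RPN14.

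Calls among genes grouped by role are set beside the shares of all genes called higher (14.3% at 30 °C, 4.02% at 50 °C) and lower (14.1% and 4.94%), and beside the 27.9% and 14% of the arm called higher. These groups use the contrast that chose the arm, so nothing is read from their counts. Among the 8 glucose signalling genes, 3 (37.5%) were called higher in Z100 at 30 °C and 2 (25%) at 50 °C, and none lower, with medians of 0.28 and 0.45 as fitted. MIG1, which was not called, lies nearest the centromere of the 8, so the calls could only fall telomere-ward of it. SNF4, the gamma subunit of Snf1 and like SIP2 in the stretch, stood at 118 and 135 CPM in XH7 and 206, 212 and 257 CPM in Z100 at 50 °C, a difference of 0.83 ± 0.17. MIG2, for a glucose-dependent repressor and the neighbour of SIP2, had 0.70 ± 0.23 at 30 °C. MIG1, for the related repressor, lies outside the stretch and had -0.33 ± 0.35 and -1.25 ± 0.35. Its 50 °C value rests on XH7 replicate 2, at 15.2 and 40.1 CPM in the XH7 libraries, and was -0.35 without that library. HXK2, the main hexokinase and close to the telomere, had -0.27 ± 0.19 and -0.34 ± 0.19, and neither value was called.

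Among the 10 genes for amino acid, purine and cofactor synthesis, 7 (70.0%, against 14.3% of all genes) were called higher at 30 °C and 1 (10.0%, against 4.02%) at 50 °C, with medians of 1.00 and 0.32. This list was written with the arm known. ARO2, for chorismate synthase, had 469 and 404 CPM in XH7 and 898, 932 and 836 CPM in Z100 at 30 °C, but 70.4 and 82.7 CPM and 62.5, 108 and 58.9 CPM at 50 °C, where the groups overlapped. PNC1, for the nicotinamidase of NAD salvage, lies outside the stretch and had 1.46 ± 0.20 at 30 °C and 0.45 ± 0.19 at 50 °C. LEU1, for isopropylmalate isomerase near the centromere, had -0.13 and 0.18. ADE5,7, for enzymes of purine synthesis on the telomere side, had 0.08 and 0.38.

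Of 8 transporter and pump genes, 2 (25%, against 14.3% of all genes) were called higher and 1 (12.5%, against 14.1%) lower at 30 °C, with medians of 0.41 and 0.23 at the 2 temperatures. TPN1, for the vitamin B6 transporter, had 110.0 and 96.2 CPM in XH7 and 249, 224 and 243 CPM in Z100 at 30 °C, with a difference of 1.21 ± 0.17. HNM1, for the choline transporter, was the only call at 50 °C, with 0.81 ± 0.19. ZRT1, for the high-affinity zinc transporter on the telomere side, was lower, with -0.58 ± 0.16 at 30 °C. PMA1, the proton pump on the centromere side, had 1277 and 1137 CPM in XH7 and 1204, 1607 and 1279 CPM in Z100 at 30 °C, and the groups overlapped. Its differences were 0.18 ± 0.21 and 0.09 ± 0.21.

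Of 18 secretory pathway genes, 6 (33.3%, against 14.3% of all genes) were called higher and 2 (11.1%, against 14.1%) lower at 30 °C, and 1 (5.56%, against 4.02%) higher at 50 °C, with medians of 0.04 and 0.37. VAM7, for a vacuolar SNARE, led with YIP4 and had 7.73 and 8.06 CPM in XH7 and 17.4, 17.1 and 19.6 CPM in Z100 at 30 °C. CWH41, for glucosidase I on the centromere side, had -0.07 and -0.63. Among 7 nuclear pore and transport genes, 3 (42.9%, against 14.3%) were called higher and 1 (14.3%, against 14.1%) lower at 30 °C, with medians of 0.37 and 0.28. NUP145, whose product is cleaved into a pair of nucleoporins, had 123 and 118 CPM in XH7 and 163, 159.7 and 163 CPM in Z100 at 30 °C. At 50 °C it had 32.9 and 32.8 CPM and 51.6, 52.8 and 44.7 CPM, so its groups were apart at both temperatures, by 0.43 ± 0.14 and 0.60 ± 0.14. NUP49 in the stretch had 0.37 and 0.61, whereas the import receptor gene KAP122, outside it, had -0.66 and -0.87.

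Of 13 transcription and chromatin genes, 4 (30.8%, against 14.3% of all genes) were called higher and 2 (15.4%, against 14.1%) lower at 30 °C, with medians of 0.28 and 0.23. The iron regulator gene AFT1 had 29.2 and 34.5 CPM in XH7 and 73.9, 81.02 and 64.2 CPM in Z100 at 30 °C, and 30.5 and 27.5 CPM and 55.97, 48.9 and 44.97 CPM at 50 °C. It was thus higher at both, by 1.20 ± 0.17 and 0.78 ± 0.17. CUP2, for the copper-sensing activator, had 1.27 and 0.71. Both calls in the other direction lay on the centromere side. DST1, for the elongation factor TFIIS, had 86.1 and 83.3 CPM in XH7 and 42.1, 44.5 and 39.7 CPM in Z100, a difference of -1.01 ± 0.27. PDR1, for the regulator of drug resistance pumps, had -0.88 ± 0.22.

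Among 6 mRNA decay genes edgeR made 0 calls at either temperature, where 4 had an unadjusted p under 0.05 at each, and DESeq2 called 1 at 50 °C. The 6 genes had medians of -0.29 and 0.43, with 2 above 0 at 30 °C and 5 at 50 °C. The exonuclease gene XRN1 had 0.23 and 0.47, and SKI8, of the exosome-assisting Ski complex, had 0.41 and 0.59. MPT5, like XRN1 and SKI8 in the stretch, had -0.55 and 0.44. PUF4, for an mRNA-binding protein on the centromere side, had -0.22 and -0.23. In the list of 13 cell cycle, replication and repair genes, 2 (15.4%, against 14.3% and 4.02% of all genes) were called higher at each temperature, with medians of 0.13 and 0.35. MCM6, for a subunit of the replicative helicase, had 49.9 and 52.4 CPM in XH7 and 66.1, 74.05 and 65.5 CPM in Z100 at 30 °C, and 25.8 and 18.6 CPM and 42.2, 44.1 and 32.2 CPM at 50 °C. Its difference was 0.83 ± 0.20 at 50 °C. CDC20, for an activator of the anaphase-promoting complex, had 0.67 ± 0.18 at 30 °C. Of 5 lipid genes, 1 was called higher at 30 °C and 2 at 50 °C. PEX14, for a peroxisomal import factor, had 1.08 ± 0.29 at 50 °C, which was 1.73 without XH7 50 °C replicate 2. SCS3 had 1.36 and -0.09, and the latter turned to 1.08 without XH7 50 °C replicate 1 and was -0.69 without replicate 2. ERG26, for an enzyme of ergosterol synthesis and the last gene before the centromere, had -0.31 and -0.60.

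Some genes inside the stretch had negative differences, of which only that of ARI1 at 50 °C was called among those named here. MAD1, for a spindle checkpoint protein, had 29.8 and 39.7 CPM in XH7 and 18.6, 16.8 and 21.4 CPM in Z100 at 30 °C, with -0.88 ± 0.35 and -0.26 ± 0.36. The replication factor gene SLD3 had -0.61 and -0.51, and ARI1, for an NADPH-dependent aldehyde reductase, had -0.40 and -0.80. SLD3 and ARI1 were chosen after their values were seen. ROK1, LSG1, NSA1 and DBP3, all ribosome assembly genes, had -0.60, -0.55, -0.36 and -0.18 at 30 °C. At 50 °C each of them was positive. The ribosome assembly and translation list, with 7 of its 9 genes in the stretch, had medians of -0.36 and 0.61. Of the 9, 2 were positive at 30 °C and 8 at 50 °C. At 30 °C 1 (11.1%, against 14.3% of all genes) was called higher and none lower. At 50 °C edgeR made 0 calls, where 1 had an unadjusted p under 0.05, and DESeq2 called 1. Among genes that reached 10 CPM, the 6 smallest mean differences lay outside the stretch, which was itself found from these differences. They belonged to TAN1, ADH4 and PAU11 on the telomere side and to KAP122, MIG1 and DST1 on the centromere side. ADH4, for an alcohol dehydrogenase isozyme, had 87.4 and 88.6 CPM in XH7 and 60.1, 62.3 and 58.1 CPM in Z100 at 30 °C, and 33.1 and 28.7 CPM and 17.1, 17.2 and 18.9 CPM at 50 °C. It was the gene of the arm called lower at both temperatures, by -0.55 ± 0.14 and -0.80 ± 0.14. TAN1, for a factor of tRNA acetylation, had -1.03 and -0.28, neither of them called, and the latter turned to 0.60 without XH7 50 °C replicate 2. PAU11 had -0.66 and -2.04, but near-identical copies of this seripauperin gene make its counts uncertain.

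The response to heat did not enter the choice of the arm and can be tested. In XH7, 63 of the 229 genes rose and 79 fell, against 31.3% and 32% of all genes. In Z100, 72 rose and 89 fell, against 33.8% and 36.2%. The members' own shares were 27.5% and 34.5% in XH7 and 31.4% and 38.9% in Z100, near the background. When libraries were scaled by size alone, which moved the median of all genes by -0.55 in XH7 and -0.63 in Z100, 38 rose and 107 fell in XH7, and 42 rose and 124 fell in Z100. Log2 of FPKM gave 38 and 114 in XH7, and 42 and 129 in Z100. The shares of all genes above are those of the main fit and do not apply to the counts from these other scalings. In the middle stretch, 42 of 147 genes rose and 50 fell in XH7, and 48 rose and 53 fell in Z100. The heat contrasts of the strains share no libraries, but both are part of the strain differences given above.

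All 9 ribosome assembly and translation genes were called lower with heat in both strains, against 32% of all genes in XH7 and 36.2% in Z100. Their median changes were -3.74 in XH7 and -3.10 in Z100 on the log2 scale, against all-gene medians of 0.01 and -0.05. This list was written with the arm known. In the other role lists at most 50% of the genes were called lower in XH7 and 62.5% in Z100. CGR1, for a factor of ribosomal RNA processing, went from 28.9 and 40.5 CPM to 0.0638 and 1.21 CPM in XH7. In Z100 it went from 9.90, 7.69 and 15.03 CPM to 0.765, 1.53 and 0.922 CPM. The fall was -5.73 ± 0.90 in XH7 (adjusted p = 0.00031) and -3.33 ± 0.66 in Z100 (adjusted p = 0.0011), edgeR, with no overlap of temperatures in either strain. The level in heated XH7 replicate 1 rests on 4 counts, so the size of the XH7 fall is uncertain. Leaving out heated XH7 replicate 1 or 2 gave -4.85 or -8.96 in XH7.

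ROK1 and DBP3, both for RNA helicases of ribosome assembly, and LSG1, for a GTPase of the large subunit, fell as steeply. ROK1 had 50.98 and 59.9 CPM at 30 °C and 0.351 and 1.83 CPM at 50 °C in XH7, and 40.1, 27.4 and 42.3 CPM and 1.42, 5.73 and 2.22 CPM in Z100. Its changes were -5.64 ± 0.81 (edgeR adjusted p = 0.00018) and -3.54 ± 0.60 (adjusted p = 0.00038). Leaving out heated XH7 replicate 1 or 2 moved the ROK1 value for XH7 to -4.92 or -7.21, and that for Z100 was -4.33 without Z100 50 °C replicate 2. DBP3 had 231 and 234 CPM and 5.30 and 6.78 CPM in XH7, and 185, 222 and 207 CPM and 5.86, 19.6 and 6.17 CPM in Z100. The DBP3 levels of the temperatures did not overlap in either strain, and its changes were -5.27 and -4.28, the latter -5.09 without Z100 50 °C replicate 2. LSG1 changed by -4.98 and -3.41, and the former was -5.78 without XH7 50 °C replicate 2. Replicate 2 of Z100 at 50 °C kept the most of ROK1, DBP3 and LSG1 among the 50 °C libraries.

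Genes that fell together had stretches of upstream DNA that could be searched for known motifs of ribosome assembly genes, and PNC1 is shown beside them as the gene with the largest rise in XH7. Windows cover bases 300 to 101 before the start codon, 200 bases on the gene's strand, read from the R64 reference and not from either strain. The motifs were the PAC core GATGAG, the RRPE core AAAAATTT and the stress response element (STRE) AGGGG, each sought on both strands, and capitals mark the matches, which overlap where RRPE cores on opposite strands share bases. CGR1 lies on the plus strand, with the window chrVII:439763-439962. ROK1 (plus, chrVII:182090-182289) shares its window with the NUP49 gene. DBP3 lies on the minus strand (chrVII:361960-362159), LSG1 on the plus strand (chrVII:314331-314530) and PNC1 on the minus strand (chrVII:428048-428247).
CGR1: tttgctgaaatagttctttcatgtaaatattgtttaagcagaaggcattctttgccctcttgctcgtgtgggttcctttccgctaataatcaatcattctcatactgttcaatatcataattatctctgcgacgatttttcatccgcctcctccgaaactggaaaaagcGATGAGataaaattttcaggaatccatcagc
ROK1: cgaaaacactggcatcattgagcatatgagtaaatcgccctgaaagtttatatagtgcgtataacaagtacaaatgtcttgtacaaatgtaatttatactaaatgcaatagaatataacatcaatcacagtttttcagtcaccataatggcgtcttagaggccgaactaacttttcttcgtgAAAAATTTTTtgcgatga
DBP3: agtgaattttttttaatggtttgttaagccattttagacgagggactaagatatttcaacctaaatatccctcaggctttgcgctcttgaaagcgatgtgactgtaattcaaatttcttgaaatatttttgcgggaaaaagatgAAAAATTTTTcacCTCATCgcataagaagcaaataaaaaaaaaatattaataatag
LSG1: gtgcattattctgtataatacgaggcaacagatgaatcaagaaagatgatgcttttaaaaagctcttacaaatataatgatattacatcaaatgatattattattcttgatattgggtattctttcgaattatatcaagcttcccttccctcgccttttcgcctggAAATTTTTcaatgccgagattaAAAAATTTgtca
PNC1: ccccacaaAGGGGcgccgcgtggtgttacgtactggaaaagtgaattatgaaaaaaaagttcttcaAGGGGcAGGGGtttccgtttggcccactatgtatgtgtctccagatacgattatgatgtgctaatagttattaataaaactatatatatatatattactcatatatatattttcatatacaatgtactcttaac

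The CGR1 window held 1 PAC core and the DBP3 window 1 PAC core and an overlapping pair of RRPE cores. ROK1 also held an overlapping pair of RRPE cores, and LSG1 held 2 that lie apart. The ROK1 window ends in the first letters of a PAC core. Bases nearer the start than 101 were not searched, so motifs there or cut by the edge are not counted. The PNC1 window held 3 STRE matches and neither other motif, and no ribosome assembly window held an STRE. Over the 9 ribosome assembly and translation genes, 3 windows held a PAC core (CGR1, DBP3, SUA5) and 4 an RRPE core (DBP3, GCN1, LSG1, ROK1). The shares over 5920 windows of the same length were 13.7% and 12.2%. The windows of NSA1, ARC1 and TIF4632 held neither, although NSA1 changed by -3.74 with heat in XH7. The shares over all 230 left-arm genes were 12.2% and 10.9%. STRE was found in 16.3% of all windows and 10.9% of those of the arm. A match is a description of the letters, and with 9 genes no more is read from it. The windows of AMS1, TOS8 and GPG1, which also rose, held none of the 3 motifs.

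PNC1 rose the most in XH7. It went from 153 and 144 CPM to 4251 and 4293 CPM in XH7 and from 435, 389 and 400.1 CPM to 6456, 5038 and 6018 CPM in Z100. The rises were 4.85 ± 0.25 (edgeR adjusted p = 5e-07) and 3.84 ± 0.19 (adjusted p = 1.7e-07). AMS1, for the vacuolar alpha-mannosidase, rose by 4.11 ± 0.34 in XH7 and 4.11 ± 0.28 in Z100, from 10.02 and 12.3 CPM and 17.7, 12.5 and 19.1 CPM to 241 and 144 CPM and 350.3, 251 and 250.2 CPM. TOS8, for a homeodomain protein bound to chromatin, had the largest rise in Z100, 4.59 ± 0.27 (adjusted p = 3.5e-07), and rose by 3.64 ± 0.31 in XH7.

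Other large rises were those of GPG1 (3.48 in XH7, 3.78 in Z100), of BRP1 (3.24 and 3.98), a small reading frame upstream of PMA1, of MPO1 (3.08 in XH7), for a fatty acid dioxygenase, and of TOS3 (3.27 in Z100), for a kinase that activates Snf1. The GPG1 value for XH7 was 2.47 or 4.16 without XH7 50 °C replicate 1 or 2. Library-size scaling lowered the Z100 rises of AMS1, BRP1, GPG1, PNC1, TOS3 and TOS8 by more than 1.5 times, to between 2.61 and 3.95, and those of AMS1 and GPG1 in XH7 to 3.50 and 2.83. It deepened the Z100 falls of ADE5,7, ARO2, MIG2, MTO1 and ROK1 as much, to between -5.10 and -4.13. From limma on log2(FPKM + 1), the Z100 rises of the same 6 genes were 2.62 to 3.88, those of AMS1, BRP1, GPG1, MPO1 and TOS8 in XH7 were 2.41 to 3.24, the fall of ROK1 in XH7 was -4.80, and the Z100 falls of ADE5,7 and ARO2 were -4.76 and -4.20. Each kept its call.

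HSF1 lies in the stretch and encodes the transcription factor that drives chaperone genes; it was chosen for its role after its values were seen. Its level was 41.2 and 43.3 CPM in XH7 and 75.5, 99.6 and 69.8 CPM in Z100 at 30 °C, and 205 and 109 CPM and 333, 169 and 156 CPM at 50 °C. Z100 was above XH7 in every library at 30 °C, while the 50 °C groups overlapped. The strain differences were 0.95 ± 0.37 and 0.48 ± 0.36, and neither was called. HSF1 rose with heat by 1.90 ± 0.41 in XH7 (edgeR adjusted p = 0.0022) and by 1.43 ± 0.33 in Z100 (adjusted p = 0.0028).

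**Figure D5:**
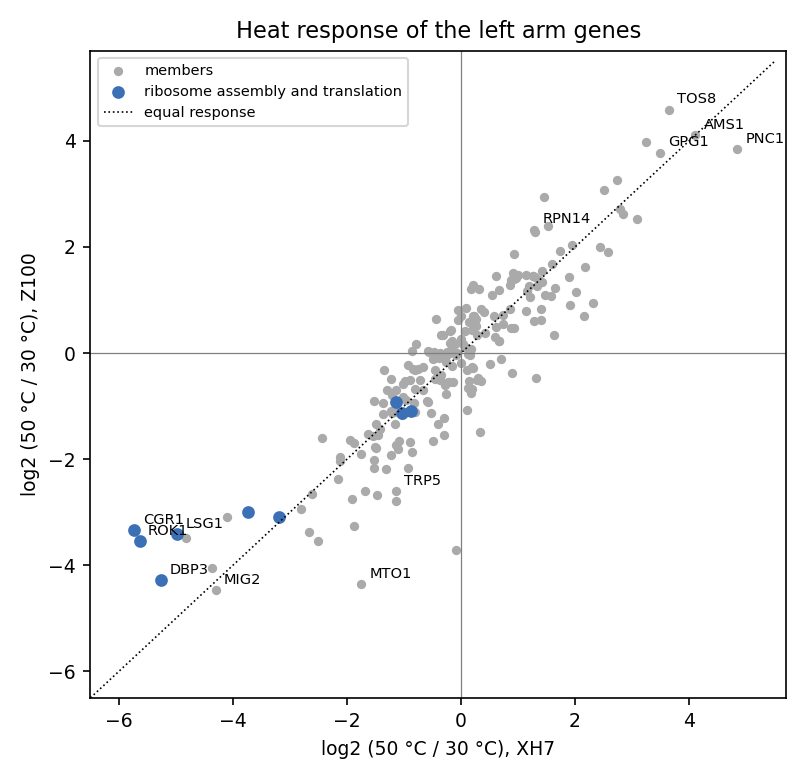
Change with heat (log2 of 50 °C over 30 °C) in XH7 (x axis) and Z100 (y axis) for the tested left-arm genes; blue points are the 9 ribosome assembly and translation genes and the dotted line marks equal responses. The blue points lie at the lower left, PNC1, AMS1, TOS8 and GPG1 lie at the upper right, and MTO1 and TRP5 lie below the line; YPS5 is not drawn because it had no count in any Z100 library at 30 °C.

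Further large falls were seen in genes of other roles. SCW11, for a cell wall glucanase-like protein, changed by -4.82 ± 0.45 in XH7. ADE5,7 went from 1029 and 808 CPM to 48.2 and 41.2 CPM in XH7 and from 911, 1025 and 967 CPM to 44.3, 99.2 and 31.7 CPM in Z100. Its changes were -4.36 and -4.05, the latter -4.67 without Z100 50 °C replicate 2. MIG2 had the largest fall in Z100, -4.47 ± 0.23 (edgeR adjusted p = 2e-07), from 227, 282 and 264 CPM to 12.2, 9.95 and 12.9 CPM, and changed by -4.30 in XH7. ARO2 changed by -3.54 ± 0.26 in Z100, and MTO1, for a mitochondrial tRNA modification enzyme, by -4.35 ± 0.30.

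The interaction term, the heat response of Z100 minus that of XH7, passed the adjusted threshold for 9 of the 229 genes, 3.93% against 4.27% of all genes, in the same model. This term compares the strain differences that singled out the arm, and its count ran from 0 to 40 when single libraries were left out, so it is given as a description. MTO1 had 43.3 and 41.3 CPM in XH7 and 118, 163 and 137 CPM in Z100 at 30 °C, but 13.04 and 12.1 CPM and 6.21, 9.82 and 4.30 CPM at 50 °C, which puts Z100 above XH7 before heat and below it after. Overlapping YGL235W had the same pattern at under 10 CPM in every library, and unstranded reads of the pair cannot be told apart. RPN14, for an assembly chaperone of the proteasome, had 22.2 and 23.6 CPM in XH7 and 22.8, 24.8 and 25.1 CPM in Z100 at 30 °C, which overlap, and 58.4 and 53.2 CPM and 132, 113 and 119 CPM at 50 °C, which do not. Lacking unheated XH7 replicate 1 or 2, edgeR made 0 calls, and 37 and 30 genes had an unadjusted p under 0.05. It made 3, 5 and 1 calls lacking unheated Z100 replicates 1, 2 and 3, 5 and 40 lacking heated XH7 replicates 1 and 2, and 18 and 1 lacking heated Z100 replicates 1 and 3.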

How the data were processed

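Per the labels' protocols, poly(A) RNA was selected, the NEBNext Ultra kit was used for libraries and an Illumina NovaSeq for sequencing. The authors deposited raw counts per gene and FPKM values, which scale the counts to gene length and library total; how reads were aligned and counted is not given in the sources used here. The deposited transcript counts equal the gene counts and were not used. Gene positions in the tables matched the R64 annotation for all 230 genes, 9 of them under another identifier (OST5 is listed as YGL226C), and 11 overlap another gene. The gene with near-identical copies in the genome (95% identity or more along 50% or more of its length, BLAST 2.17.0) is PAU11. The 3 empty lines of the tables are not analysed here.

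Counts were fitted with edgeR 4.0.16 (R 4.3.3; TMM factors, filterByExpr, quasi-likelihood test, 4 group means over all 10 libraries, 6 residual degrees of freedom, biological coefficient of variation 0.238), with Benjamini-Hochberg adjustment over 6015 genes and calls at adjusted p under 0.05. All replicate pairs differed by more than counting noise, at 81.0 to 1411 chi-square per gene. Ribosomal RNA took 0.530% of the reads counted for unheated XH7 replicate 2 and no more than 0.153% elsewhere. The fit and the search for the stretch were tested on simulated data. Log2 CPM per library used a prior count of 2, and the search limited each gene to ±1. Alternatives were DESeq2 1.42.0, limma 3.58.1 on log2(FPKM + 1), other scalings and filters, the compared groups only, a replicate block and each library left out. The arm, its members and the role lists were chosen with earlier results of these data known; the stretch and its alternatives were added after seeing the values. Named genes, at 10 CPM or more in the higher group, were the 10 largest and 6 smallest mean strain differences, 2 largest and 1 smallest per list, the 6 largest rises and falls per heat contrast, up to 4 interaction calls each way, ends of blocks of 15 genes and 6 anchors (PMA1, HXK2, MIG1, LEU1, PDR1, XRN1); no gene had 3 counts or fewer throughout a strain with 50 or more throughout the other. KEM1, an older symbol of XRN1, was not found.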

Additional observations from a re-analysis of the deposited data

Results flagged for a closer look

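For 8 left-arm genes the interaction term of the edgeR model, which is the heat response of Z100 minus that of XH7 on the log2 scale, passed the adjusted threshold over all genes. The term compares the strain differences by which the arm was chosen, so its values are a description. In all, 9 of 229 genes passed, 3.93% against 4.27% of all genes, with 0 calls by edgeR without either unheated XH7 library (37 and 30 at an unadjusted p under 0.05), 3 with the replicate block and 32 by DESeq2. Negative values, a heat response lower in Z100, were found for MTO1 (-2.61, heat -1.75 in XH7 and -4.35 in Z100), TRP5 (-1.46, heat -1.14 and -2.61), YGL114W (-1.17, heat -0.49 and -1.66) and MNP1 (-0.92, heat 0.17 and -0.74). TRP5 encodes tryptophan synthase, and its strain difference was 0.97 at 30 °C and -0.49 at 50 °C. Positive values were found for SNT2 (1.07, heat -0.43 in XH7 and 0.64 in Z100), RPN14 (1.04, heat 1.28 and 2.33), SEC15 (0.96, heat -0.79 and 0.17) and ITC1 (0.87, heat 1.53 and 2.39). SNT2 encodes a subunit of a histone deacetylase complex, SEC15 a subunit of the exocyst and ITC1 a subunit of a chromatin remodeller. The ninth gene called, YGL235W, overlaps MTO1 and had under 10 CPM in every library.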

How the results depend on the processing

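The median strain difference of the arm kept its direction under every setting run, at 0.26 to 0.38 at 30 °C and 0.30 to 0.38 at 50 °C, and with single libraries left out it ran from 0.324 to 0.372 and from 0.299 to 0.373. It was 0.257 at 30 °C without subtracting the all-gene median, 0.329 with library-size scaling, 0.319 and 0.305 (50 °C) from limma on log2(FPKM + 1), 0.376 and 0.378 for genes averaging 5 CPM or more, and 0.349 at 30 °C with the replicate block. The median of the middle stretch ran from 0.46 to 0.54 at 30 °C and 0.45 to 0.54 at 50 °C, and that of the genes outside it from -0.23 to -0.14 and from -0.14 to -0.03, an alternative chosen after seeing the data. Counts of calls moved more, and the shares of all genes called under each setting are not given beside them. DESeq2 called 66 genes higher and 9 lower at 50 °C and 32 in the interaction. Fitting the compared groups only gave 101 higher and 31 lower at 30 °C and 0 and 0 at 50 °C by edgeR, where 58 and 13 had an unadjusted p under 0.05. Library-size scaling gave 40 higher and 7 lower at 30 °C, 8 and 6 at 50 °C, and 38 rises in XH7 and 42 in Z100; limma on log2(FPKM + 1) gave 41 and 9, 8 and 5, 38 and 42. Leaving out single libraries gave 11 to 82 higher and 0 to 21 lower at 30 °C, 10 to 35 and 2 to 5 at 50 °C, 49 to 64 rises and 65 to 80 falls in XH7, 64 to 78 rises and 83 to 91 falls in Z100, and 0 to 40 interaction calls; where none was called lower at 30 °C, without XH7 30 °C replicate 1 or 2, 17 and 14 had an unadjusted p under 0.05. Among the alternatives run, all 432 values for the heat changes of named genes kept their call. With the replicate number as a block, 12 genes were higher at 50 °C and 3 were called in the interaction; same-numbered libraries correlated at 0.64 and 0.53 at 50 °C but at -0.11 and -0.14 at 30 °C, so the numbers were not taken as pairing. The causes of these shifts were not tested. Depth was high, the libraries of a group varied, and each XH7 group held only 2 libraries. What limits the number of calls was not tested either.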
